A study of Mus musculus with 6 samples.

Results

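Imprinted genes of fetal growth were described in liver tumors driven by MYC, with and without an inhibitor of the arginine methyltransferase PRMT5. The members were the 10 rows whose gene symbol, as given in the row name, is H19, Igf2, Dlk1, Meg3, Rian, Mirg, Peg3, Mest, Plagl1 or Grb10, out of 47643 genes in the table. Gene coordinates are of mm10. All 10 were found once each, and all 10 passed the filter on low counts. They lie in 6 imprinted domains, and the results below follow those domains.

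The mice were of strain FVB/N and carried both LAP-tTA and tetO-MYC transgenes, in which the liver activator protein promoter drives the tetracycline transactivator in hepatocytes and doxycycline holds the MYC transgene off. Every mouse received doxycycline at 100 mg/L of drinking water up to 4 weeks of age, and MYC was then on for 8 weeks before treatment. The vehicle group (3 libraries) and the group given GSK3326595 at 50 mg/kg/day (3 libraries) were treated for 2 weeks, so both groups carry both transgenes and both have active MYC. The labels do not say whether the 3 libraries of a group are separate animals, so the p-values measure the spread between libraries. They give no sex, and no group without MYC was analysed here. The source is labelled liver tumor, while the extraction protocol names liver.

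An imprinted gene is transcribed mainly from the copy inherited from one parent, because DNA methylation set in the germ line marks an imprinting control region on a single parental copy. Paternally expressed members such as Igf2, Dlk1, Peg3, Mest and Plagl1 are mostly known as promoters or regulators of fetal growth, and maternally expressed members such as H19 and Grb10 are mostly known as restraints on it. Many of these genes are active in fetal liver and silent in adult liver, and H19, Igf2 and Dlk1 are known to be re-expressed in liver tumors. The counts do not separate the parental copies. In bulk tissue, fewer cells of a type and less RNA per cell cannot be told apart.

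Several members carry microRNAs inside their transcription units, and these are shown because the host RNAs are read here as levels while the small RNAs are not. The RefSeq entries used (GRCm38.p6) list 21 hairpins and 41 mature microRNAs inside the members. They have 40 different seeds, so the clusters are not copies of a single seed. Mirg holds 14 of the hairpins listed, Rian 3, and H19, Igf2, Meg3 and Mest 1 each. Meg3 holds mature miR-770 and miR-1906, which come from separate hairpins, so this count lacks a hairpin of Meg3. The capitals mark the seed, bases 2 to 8.
H19, mmu-miR-675-5p: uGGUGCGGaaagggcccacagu
H19, mmu-miR-675-3p: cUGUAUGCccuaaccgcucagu
Igf2, mmu-miR-483-3p: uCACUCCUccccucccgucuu
Meg3, mmu-miR-770-5p: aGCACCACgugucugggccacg
Rian, mmu-miR-370-3p: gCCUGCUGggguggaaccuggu
Mirg, mmu-miR-382-5p: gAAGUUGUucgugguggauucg
Mirg, mmu-miR-410-3p: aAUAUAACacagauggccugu
Mest, mmu-miR-335-5p: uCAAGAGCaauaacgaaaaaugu

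The bases upstream of the start site are shown for Meg3 and Peg3 because their windows hold a motif that the other windows of the members lack. RefSeq promoters were found for 9 of the 10 members, 16 start sites in all, and the 250 bases before each start were searched on both strands for 5 motifs chosen with these sequences in view. The cAMP response element TGACGTCA, a palindrome bound by CREB and ATF factors, was in 2 of the 16 windows, that of Meg3 at 57 bases before its start and that of Peg3 at 178 bases. It was in 1.55% of 32851 mouse promoter windows of the same length. The windows of Dlk1, Rian and Mirg and a second one of Meg3 do not hold it. Capitals mark the element. The sequences are from the reference strain and not from FVB/N.
Meg3, chr12:109540746-109540995, plus strand, GRCm38.p6: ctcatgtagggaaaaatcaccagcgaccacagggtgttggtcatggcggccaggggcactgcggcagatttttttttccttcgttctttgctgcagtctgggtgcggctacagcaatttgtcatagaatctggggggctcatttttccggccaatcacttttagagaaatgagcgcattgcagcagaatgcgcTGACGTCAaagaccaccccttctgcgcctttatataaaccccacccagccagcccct
Peg3, chr7:6730420-6730669, minus strand, GRCm38.p6: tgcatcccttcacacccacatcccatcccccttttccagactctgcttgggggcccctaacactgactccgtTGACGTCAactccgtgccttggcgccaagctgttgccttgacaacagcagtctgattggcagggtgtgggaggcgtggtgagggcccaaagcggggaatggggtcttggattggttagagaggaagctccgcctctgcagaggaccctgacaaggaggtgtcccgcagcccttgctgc
The other letters searched were TGCCGC (the ZFP57 motif, in 8.68% of all windows), GCCATNTT (YY1, 3.91%), TATAAA (12.4%) and CACGTG (6.02%). The Meg3 window also holds TGCCGC once and TATAAA 2 times, in overlapping letters of both strands, and neither overlaps the element. TGCCGC was also in windows of Mest and Plagl1, and CACGTG in that of Plagl1. A match is a description of letters and not a bound site. Among the 16 windows, the one with the most CpG dinucleotides was the upstream one of Grb10, with 40 in 250 bases and 81.2% G and C, against a median of 6 over all windows.

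The libraries held 25814339 to 33621083 expected counts. The library of GSK3326595 replicate 2 stood apart: it lay at 103 on the first principal component of log2 counts, which held 38.1% of the variance, and the other 5 lay between -50.2 and 9.37. Results are therefore given with and without it. Hepatocyte genes were expressed in every library, and Alb ran from 3157 to 11944 CPM (counts per 1e6 counts, scaled by TMM, the unit used below unless another is named). Prmt5, the gene of the inhibited enzyme, was at 69.9, 48.9 and 84.9 CPM in vehicle and 51.3, 96.0 and 129.9 CPM in GSK3326595. The mouse Myc row ran from 1.84 to 8.91 CPM. Xist, the RNA of X inactivation, was at 17.0 to 27.4 CPM in vehicle and 0.433 to 3.26 CPM in GSK3326595, while the Y-linked Eif2s3y was at 40.6 to 60.7 CPM in all 6. The part of Xist or of the mice's sex in the results was not tested.

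Per length of annotated exons, the members spanned a wide range of levels in vehicle tumors. H19 led at 13795 ± 4809 RPKM (CPM per kilobase, SD, n = 3), followed by Igf2 at 425 ± 82.7 RPKM. Peg3 at 39.7 ± 10.3 and Grb10 at 31.4 ± 2.64 RPKM came next and did not differ beyond their spread. Rian at 9.29 ± 1.53, Meg3 at 8.31 ± 1.04 and Dlk1 at 7.79 ± 2.59 RPKM overlapped likewise. Divided by the longest transcript instead, Rian was at 20.9 RPKM against 10.3 for Meg3 and 9.47 for Dlk1, so that overlap depends on the length used, and Peg3, Grb10 and Mirg were at 60.8, 56.3 and 4.61 RPKM. Mirg stood by exon length at 2.41 ± 0.172 and Mest at 0.402 ± 0.242 RPKM, and Plagl1 was near the floor at 0.0613 ± 0.0601 RPKM. The fetal growth RNAs H19 and Igf2 were thus among the most abundant of these tumors: by mean CPM, H19 ranked 2 and Igf2 ranked 35 of 17012 genes tested.

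**Figure D1:**
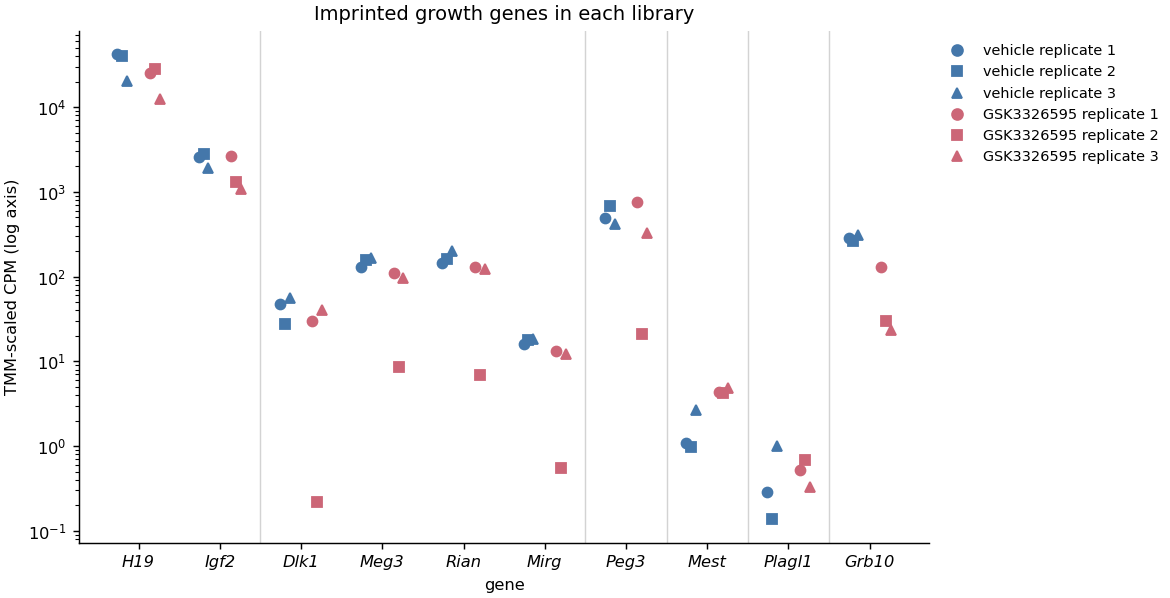
Level of each of the 10 genes in each of the 6 libraries, in TMM-scaled CPM on a log axis; each point is 1 library, color marks the group, shape the replicate, and grey lines part the imprinted domains. GSK3326595 replicate 2 sits far below the other 5 libraries in Dlk1, Meg3, Rian, Mirg and Peg3, while all 3 treated libraries lie below vehicle in Grb10 and above it in Mest.

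Between the groups, none of the 10 members passed the edgeR quasi-likelihood test at an adjusted p of 0.05, and neither did any other gene (0% of 17012). At an unadjusted p under 0.05 edgeR had 1 member higher in GSK3326595, Mest, against 5.45% of all genes tested, and 1 member lower, Grb10, against 3.81%. DESeq2, run on the same genes with adjustment, called 0 members higher (1.09% of all genes) and 1 lower, Grb10 (0.588% of all genes). The groups did not overlap in 1 member that was higher, Mest, against 6.72% of all genes, and in 4 that were lower, Meg3, Rian, Mirg and Grb10, against 7.66%. Meg3, Rian and Mirg lie in a row on the same strand and are not 3 independent cases. Fitted log2 differences (GSK3326595 minus vehicle) were below 0 in 8 members and above 0 in 2, beside a median of 0.03 over all genes tested. With 3 libraries against 3, an exact permutation test of a single gene cannot go below p = 0.1.

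**Figure D2:**
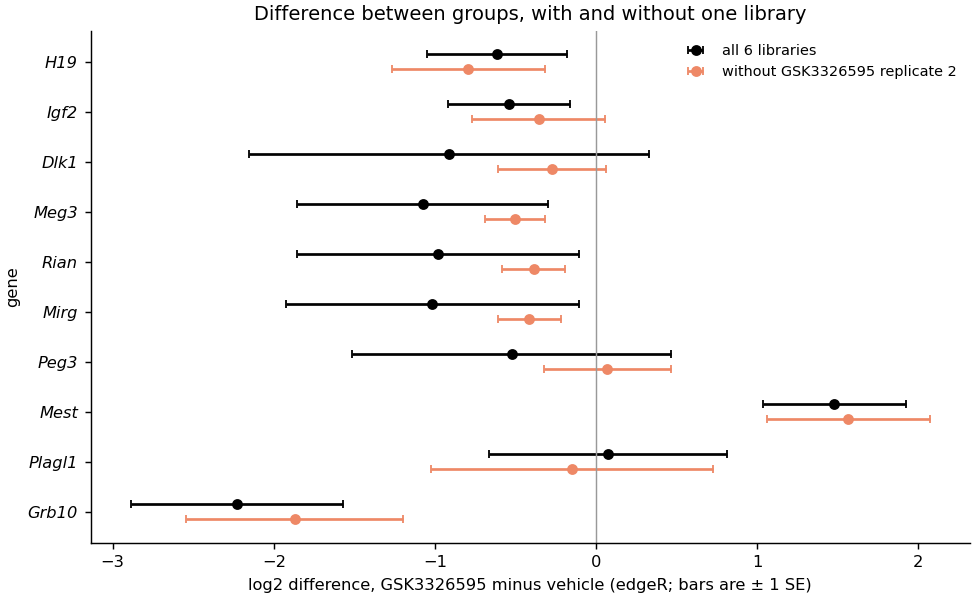
Fitted log2 difference of each gene, GSK3326595 minus vehicle, with bars of 1 SE from edgeR, for all 6 libraries (black) and without GSK3326595 replicate 2 (orange). Without that library the 5 genes from Dlk1 to Peg3 move toward 0 and Peg3 passes to 0.07, while Mest and Grb10 stay on their sides at 1.56 and -1.87.

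The growth-restraining adaptor Grb10, which binds the insulin and IGF1 receptors and dampens their signal, was the member with the lowest fitted difference in edgeR and DESeq2; in limma-voom Dlk1 was lower (-2.76 against -2.66). Grb10 (ENSMUSG00000020176, chr11:11930508-12038683, minus strand, mm10) is maternally expressed in most tissues and paternally in neurons. It was at 284, 262 and 310 CPM in the vehicle libraries and at 129, 29.7 and 23.5 CPM in the GSK3326595 libraries. All 3 treated libraries were below all 3 vehicle libraries, and their levels were 45.3%, 10.4% and 8.25% of the vehicle mean. The vehicle mean was 285 ± 24.0 CPM and the treated mean 60.8 ± 59.3 CPM (SD, n = 3 per group), so the spread was larger among treated libraries. The log2 difference was -2.23 ± 0.66 (SE), with an edgeR adjusted p of 0.491 and an unadjusted p of 0.0126 in that fit across all genes. DESeq2 gave a log2 difference of -2.22 with an adjusted p of 0.0336. Leaving out any single library kept the edgeR difference between -3.42 and -1.82, with the lowest value without GSK3326595 replicate 1.

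Of the genes around Grb10, none passed the edgeR test and Ddc passed DESeq2. Ddc, the aromatic amino acid decarboxylase, is imprinted in fetal heart and adjoins Grb10. It was at 168, 146 and 108 CPM in vehicle and 70.9, 33.9 and 67.1 CPM in GSK3326595. The Ddc groups did not overlap, and the log2 difference was -1.30 ± 0.33 (edgeR adjusted p = 0.459, DESeq2 adjusted p = 0.0480). Cobl, an actin nucleator on the other side of Grb10, was at 9.69, 6.36 and 14.2 CPM in vehicle and 22.0, 34.7 and 18.2 CPM in GSK3326595. Its groups did not overlap either, with the treated libraries above at a log2 difference of 1.31 ± 0.38 (edgeR adjusted p = 0.491, DESeq2 adjusted p = 0.0676). Fignl1 had a log2 difference of 0.21 ± 0.35 and Ikzf1, a lymphoid transcription factor, one of 1.11 ± 0.48, neither at an unadjusted edgeR p under 0.05.

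Mest, a paternally expressed hydrolase-like protein of mesoderm that is the host of miR-335, was the reverse case at a far lower level. Mest (chr6:30723547-30748465, plus strand) was at 1.08, 0.986 and 2.69 CPM in vehicle and 4.29, 4.22 and 4.80 CPM in GSK3326595. These values rest on 29 to 90 counts a library in vehicle and 133 to 136 in GSK3326595. The treated libraries lay close together and above all vehicle libraries, of which replicate 3 was the highest. The log2 difference was 1.48 ± 0.44, with an edgeR adjusted p of 0.493 (unadjusted 0.0134) and a DESeq2 adjusted p of 0.0746. Without vehicle replicate 3 it was 2.13 ± 0.34, at an edgeR adjusted p of 0.220. Mest and the 3′ end of Copg2 overlap on opposite strands. Copg2, a coat protein gene, was at 27.0 to 38.8 CPM in all libraries with a log2 difference of 0.09 ± 0.19. Cep41, a centrosomal gene nearby, was at 2.39, 2.48 and 2.03 CPM in vehicle and 2.84, 5.61 and 4.22 CPM in GSK3326595. Its groups did not overlap, at a log2 difference of 0.88 ± 0.33 (edgeR unadjusted p = 0.0337, adjusted p = 0.522).

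Markers of stellate cells and fibroblasts and of T cells were higher in sum in every treated library than in every vehicle library. The summed levels of macrophage, endothelial, biliary, erythroid and proliferation markers overlapped between the groups. The summed level of 14 stellate cell and fibroblast markers was 191, 402 and 654 CPM in vehicle and 820, 869 and 918 CPM in GSK3326595. Their mean log2 CPM, in which each gene weighs the same, overlapped between the groups. It was 2.82, 3.60 and 4.55 in vehicle and 4.26, 4.94 and 4.48 in GSK3326595. Of these 14, 12 had log2 differences above 0, with a median of 0.86; 3 were higher at an unadjusted edgeR p under 0.05 (5.45% of all genes) and none was called by edgeR or DESeq2. Acta2 and Tagln, of activated stellate cells, had log2 differences of -0.07 and -0.30. The summed level of 10 T cell markers was 5.52 to 7.76 CPM in vehicle and 15.6 to 33.6 CPM in GSK3326595, all 6 tested of them above 0, and 5 called higher by DESeq2 (1.09% of all genes). Hepatocyte markers summed to 18151 to 39422 CPM in vehicle and 9971 to 31812 CPM in GSK3326595. The part of these cell types in the Mest and Grb10 differences was not tested.

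H19 and Igf2 share enhancers and a control region at which CTCF binding on the maternal copy directs the enhancers to H19. H19 (chr7:142575529-142578143, minus strand), a long noncoding RNA, was at 41731, 39750 and 20323 CPM in vehicle and 25524, 28421 and 12591 CPM in GSK3326595. It alone took 3.90%, 3.71% and 2.12% of all counts in vehicle and 2.62%, 2.83% and 1.35% in GSK3326595. The groups overlapped, because vehicle replicate 3 was below treated replicates 1 and 2. The log2 difference was -0.61 ± 0.43 (edgeR adjusted p = 0.707, DESeq2 adjusted p = 0.694).

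Igf2 (chr7:142650766-142666816, minus strand), the fetal growth factor that signals through the IGF1 and insulin receptors, was at 2607, 2795 and 1897 CPM in vehicle and 2631, 1318 and 1071 CPM in GSK3326595. Treated replicate 1 sat among the vehicle libraries and the other two below them. The log2 difference was -0.54 ± 0.38 (edgeR adjusted p = 0.706). Without GSK3326595 replicate 1 it was -1.03 ± 0.27, at an unadjusted edgeR p of 0.0103 and an adjusted p of 0.456. The ratio of H19 to Igf2 counts was 16.0, 14.2 and 10.7 in vehicle and 9.70, 21.6 and 11.8 in GSK3326595, so the treated values lay on both sides of the vehicle range.

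Around this pair, Igf2os, an antisense RNA over the 5′ part of Igf2, was at 39.9, 35.4 and 46.8 CPM in vehicle and 24.7, 22.0 and 32.2 CPM in GSK3326595. The groups did not overlap, at a log2 difference of -0.63 ± 0.21 (edgeR unadjusted p = 0.0222, adjusted p = 0.522). The sources used here give no strand setting for the counting, so reads of Igf2 and Igf2os may not be told apart. Lsp1, a leukocyte gene beyond H19, had a log2 difference of 1.28 ± 0.43 (edgeR unadjusted p = 0.0219, adjusted p = 0.522), and Mrpl23, a mitochondrial ribosome gene, one of -0.20 ± 0.17. Over the 6 libraries, log2 CPM of H19 and Igf2 had a Pearson r of 0.765 (exact permutation p = 0.0833) and a Spearman rho of 0.6 (exact permutation p = 0.242). The r was 0.360 without GSK3326595 replicate 3 and vehicle replicate 1, and 0.918 without GSK3326595 replicate 2. The relation rests on a few libraries.

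The Dlk1-Dio3 domain holds paternally expressed protein genes and a maternally expressed run of noncoding RNAs, Meg3, Rian and Mirg, which carry its small RNAs. All 4 members there were at under 6% of the vehicle mean in GSK3326595 replicate 2 and were much closer to vehicle in the other treated libraries. Meg3 (chr12:109541001-109571726, plus strand) was at 129, 158 and 165 CPM in vehicle and 109, 8.68 and 96.1 CPM in GSK3326595. Rian (chr12:109603940-109661716), the host of a snoRNA cluster, was at 146, 161 and 200 CPM in vehicle and 129, 6.98 and 121 CPM in GSK3326595. Mirg (chr12:109729764-109749460), the host of the miR-382 and miR-410 cluster shown above, was at 16.2, 18.1 and 18.6 CPM in vehicle and 13.4, 0.558 and 12.2 CPM in GSK3326595. In each of the 3 noncoding RNAs, every treated library was below every vehicle library, and replicate 2 was below all.

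Dlk1 (chr12:109452823-109463336), a membrane protein of fetal hepatoblasts with a structure like NOTCH ligands, was at 47.8, 27.9 and 56.5 CPM in vehicle and 30.2, 0.217 and 40.0 CPM in GSK3326595. In the lowest library Dlk1 had 7 counts, with an exact Poisson 95% interval of 2.81 to 14.4 counts that covers counting error only. The other two treated libraries lay inside the vehicle range. Fitted log2 differences were -0.91 ± 1.24 for Dlk1, -1.08 ± 0.78 for Meg3, -0.98 ± 0.87 for Rian and -1.02 ± 0.91 for Mirg, with edgeR adjusted p between 0.715 and 0.875. With limma-voom they were -2.76, -1.74, -1.82 and -1.99, with adjusted p between 0.635 and 0.670. Without GSK3326595 replicate 2 they were -0.28 ± 0.33, -0.50 ± 0.19, -0.39 ± 0.20 and -0.41 ± 0.20. Meg3 alone of the 4 then had an unadjusted edgeR p under 0.05 (0.0355, adjusted p = 0.480).

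In GSK3326595 replicate 2 the vehicle mean was 203 times the level for Dlk1, 17.3 times for Meg3, 24.3 times for Rian and 31.5 times for Mirg. Against the next lowest library, Dlk1 was lower by 6.63 on the log2 scale, which ranked 6 among 14458 genes with a mean of at least 1 CPM. The same gap was 3.46 for Meg3, 4.11 for Rian and 4.30 for Mirg, at ranks 45, 23 and 18. Of 102 rows of the table in the window from Dlk1 to Mirg, 9 passed the count filter, and all 9 were lowest in that library. Rows between Mirg and Dio3 were not searched. Among the 9 rows that passed is Rtl1, a paternally expressed gene derived from a retrotransposon. It was at 20.1, 21.7 and 29.7 CPM in vehicle and 16.3, 0.651 and 17.0 CPM in GSK3326595. The 9 rows include paternally expressed genes, Dlk1 and Rtl1, and maternally expressed ones. Dio3, the paternally expressed deiodinase gene at the far end, was below the filter. It was at 0.127, 0.170 and 0.149 CPM in vehicle and 0.322, 0.248 and 0.469 CPM in GSK3326595. Begain was at most 0.108 CPM in every library. In GSK3326595 replicate 2 neither lay below its vehicle libraries, with Begain at 0.093 CPM, but both were near the floor in every library. Wdr25, which lies upstream of Dlk1 beyond Begain, was at 4.83 to 6.70 CPM in all 6 libraries. The 66 rows of microRNA hairpins and 23 rows of snoRNAs in the window from Dlk1 to Mirg were at 0 in every library.

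**Figure D3:**
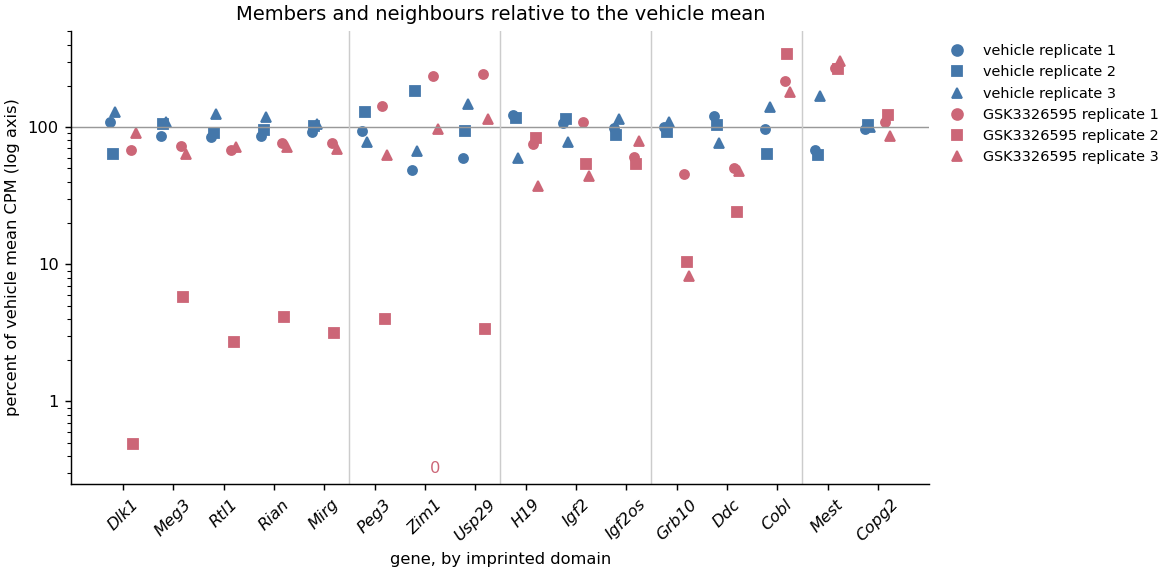
Level of members and of genes beside them as a percent of the vehicle mean (log axis), with 1 point for each library, color for the group, shape for the replicate, and grey lines between domains; a 0 at the base marks a library with no counts. GSK3326595 replicate 2 is at 0.492% to 5.77% of the vehicle mean in Dlk1, Meg3, Rian, Mirg and Peg3, while Grb10 is below 50% in all 3 treated libraries.

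Ratios within the domain showed how far its RNAs kept step. The ratio of Rian to Meg3 counts was 1.14, 1.02 and 1.22 in vehicle and 1.19, 0.804 and 1.26 in GSK3326595. Mirg to Meg3 was 0.126, 0.115 and 0.113 in vehicle and 0.123, 0.0643 and 0.127 in GSK3326595. Both ratios differed little among 5 libraries, and both were lowest in GSK3326595 replicate 2. Dlk1 to Meg3 varied more, at 0.371, 0.177 and 0.344 in vehicle and 0.277, 0.0250 and 0.416 in GSK3326595.

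**Figure D4:**
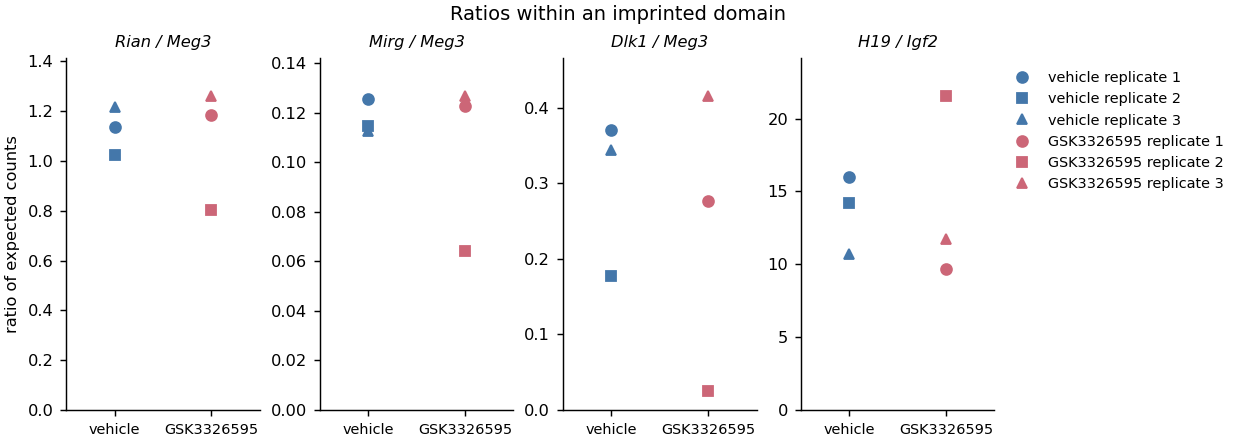
Ratios of expected counts between genes of an imprinted domain, each panel with its own axis from 0 and 1 point for each of 3 vehicle and 3 GSK3326595 libraries. Rian to Meg3 and Mirg to Meg3 lie close together except in GSK3326595 replicate 2 (0.804 and 0.0643), Dlk1 to Meg3 spreads from 0.0250 to 0.416, and H19 to Igf2 from 9.70 to 21.6.

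Across the 6 libraries, log2 CPM of Meg3, Rian and Mirg were tightly related. Among 7 pairs of members tested, Meg3 with Rian had a Pearson r of 0.997 and Meg3 with Mirg and Rian with Mirg 0.998, each with an exact permutation p of 0.00139 (adjusted over the 7 pairs 0.00324). Spearman's rho was 1 in all 3 pairs (exact permutation p = 0.00278, adjusted 0.00648). Without GSK3326595 replicate 2 and vehicle replicate 3, which lay farthest from the median, the r was 0.996, 0.990 and 0.998. The order of libraries within this run of RNAs therefore did not rest on the low library. The permutations and these r ran over libraries of both groups, so they include the group difference that the 3 RNAs shared. Dlk1 had an r of 0.979 with Meg3, 0.990 with Rian and 0.988 with Mirg (exact permutation, adjusted p from 0.0705 to 0.0713) and a rho of 0.6 with each (exact permutation p = 0.242). Without the same 2 libraries its r was -0.343, -0.261 and -0.208, so the relation of Dlk1 to the noncoding RNAs rests on them.

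Peg3, a paternally expressed zinc finger protein, showed the same low library in another chromosome region. Peg3 (chr7:6703892-6730431, minus strand) was at 494, 680 and 412 CPM in vehicle and 751, 21.1 and 330 CPM in GSK3326595. The treated group held both the highest and the lowest library. The log2 difference was -0.52 ± 0.99 (edgeR adjusted p = 0.925), -1.58 with limma-voom (adjusted p = 0.742), and without GSK3326595 replicate 2 it was 0.07 ± 0.39 (edgeR adjusted p = 0.965). In replicate 2 Peg3 was at 3.99% of the vehicle mean, and it lay 3.96 below the next library on the log2 scale, at rank 27. Its neighbours had few counts: the paternally expressed Usp29, which starts beside Peg3 on the other strand, was at 0.542, 0.850 and 1.34 CPM in vehicle and 2.22, 0.0310 and 1.05 CPM in GSK3326595. Zim1, a maternally expressed zinc finger gene, was at 1.24, 4.73 and 1.70 CPM in vehicle and 6.03, 0 and 2.49 CPM in GSK3326595. Both were lowest in GSK3326595 replicate 2 and highest in replicate 1. Zfp264 was at 8.90 CPM in replicate 1 and at most 0.0956 CPM in every other library.

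In GSK3326595 replicate 2 other fetal and mature liver genes did not all move one way. The genes of this paragraph beyond the list counts were picked after their values were seen. Afp, the fetal serum protein, was at 5706, 5883 and 6659 CPM in vehicle and 13207, 294 and 3837 CPM in GSK3326595. Of 12 fetal liver genes, 11 were tested, 5 with log2 differences above 0 and 6 below, none at an unadjusted edgeR p under 0.05, and the median was -0.07. Over the 11 tested fetal genes the mean log2 CPM was 3.32 in GSK3326595 replicate 2 and 4.88 to 5.95 in the other 5 libraries. Afp, Igf2bp1, Igf2bp3, Bex1, Bex2, Tff3, Spink1 and Scd2 were lowest in that library. Gpc3 and Hmga2 lay there within the range of the others. The fetal genes Lin28b, at 1.74 CPM against at most 0.0637 elsewhere, and Cd24a, at 4.93 CPM against 0.669 to 3.71, were highest there. Igf1, the growth factor of the postnatal liver, was at 264 CPM in GSK3326595 replicate 2 and 35.7 to 70.3 CPM in the other 5 libraries. Cyp2e1, a cytochrome of mature hepatocytes, was at 1910 CPM there and 4.05 to 212 CPM elsewhere. Zbtb20, a repressor of Afp, was at 279 CPM there and 35.9 to 57.6 CPM elsewhere. The hepatocyte markers Alb, Ttr, Cps1, Apoa1, Fgb and Hnf4a lay there within the range of the other 5 libraries, and Apob and Serpina1a were highest there. H19 in the same library was at 83.8% and Igf2 at 54.2% of the vehicle mean, so these members did not share the low level of Dlk1 and Peg3. The sources used here give no tumor content for the samples, and its part in these values was not tested.

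Plagl1, a zinc finger regulator of the imprinted gene network, was hardly expressed. Plagl1 (chr10:13060504-13131694, plus strand) was at 0.287, 0.136 and 1.01 CPM in vehicle and 0.516, 0.682 and 0.325 CPM in GSK3326595, from 4 to 34 counts a library. The groups overlapped, and vehicle replicate 3 was the highest. The log2 difference was 0.08 ± 0.74 (edgeR adjusted p = 0.987), and its sign turned when vehicle replicate 1, vehicle replicate 2 or GSK3326595 replicate 2 was left out (-0.19, -0.36 and -0.15). Without vehicle replicate 3 it was 1.28 ± 0.61 (edgeR adjusted p = 0.555). The neighbours Phactr2, Sf3b5, Utrn and Ltv1 had log2 differences of 0.68 ± 0.41, -0.14 ± 0.30, -0.55 ± 0.36 and 0.01 ± 0.27, none at an unadjusted edgeR p under 0.05.

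Other imprinted genes did not move one way. Outside the members, 22 genes were listed as paternally expressed. Of these, 14 were tested, with 5 log2 differences above 0, 9 below and a median of -0.22. Sgce, a sarcoglycan, had the smallest p, at 32.5, 28.5 and 12.4 CPM in vehicle and 11.0, 2.17 and 1.44 CPM in GSK3326595 (log2 difference -2.33 ± 0.82, edgeR unadjusted p = 0.0264, adjusted p = 0.522). Peg10, its head-to-head neighbour, was at 1342, 1257 and 249 CPM in vehicle and 288, 4.50 and 2.89 CPM in GSK3326595 (edgeR adjusted p = 0.619). In both genes vehicle replicate 3 was nearest to treated replicate 1. Sfmbt2, a polycomb protein gene, was at 400, 337 and 378 CPM in vehicle and 151, 6.20 and 367 CPM in GSK3326595, and it was lowest in replicate 2 as the Dlk1-Dio3 genes were.

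Outside the members, 21 genes were listed as maternally expressed. Of these, 16 were tested, 7 above 0 and 9 below, with a median of 0.00. Whether the genes of either list are imprinted in these tumors was not tested. Tfpi2, a protease inhibitor, was at 15.2, 13.3 and 14.8 CPM in vehicle and 36.7, 33.5 and 25.6 CPM in GSK3326595. The groups did not overlap, at a log2 difference of 1.15 ± 0.20 (edgeR adjusted p = 0.455, DESeq2 adjusted p = 3.3e-04). Dcn, a proteoglycan of fibroblasts that also stands in the stellate list, had a log2 difference of 0.97 ± 0.40 (edgeR adjusted p = 0.534). Cdkn1c, a growth-restraining inhibitor of cyclin-dependent kinases, was at 147, 121 and 131 CPM in vehicle and 152, 16.2 and 107 CPM in GSK3326595, again lowest in replicate 2.

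Regulators of imprinted loci were tested for 15 of 18 genes. Of these, 14 had log2 differences above 0, beside 9041 of all 17012 genes tested. The median was 0.22, beside 0.03 over all genes. At an unadjusted edgeR p under 0.05, 2 were higher (5.45% of all genes), and none was called by edgeR or DESeq2. Dnmt3b, a de novo DNA methyltransferase, was at 23.6, 17.9 and 24.3 CPM in vehicle and 41.8, 38.6 and 30.3 CPM in GSK3326595 (log2 difference 0.75 ± 0.21, edgeR unadjusted p = 0.0102, adjusted p = 0.486). Zfp57, which binds methylated imprinting control regions, had a log2 difference of 1.30 ± 0.54 at under 2 CPM in every library (edgeR adjusted p = 0.538). The maintenance enzyme Dnmt1 and its partner Uhrf1 had log2 differences of 0.28 ± 0.37 and 0.03 ± 0.50, and Ctcf one of 0.22 ± 0.22.

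In the IGF2 pathway, all 24 genes were tested, with 11 log2 differences above 0, 13 below and a median of -0.02. At an unadjusted edgeR p under 0.05, 3 were lower (3.81% of all genes) and 1 higher (5.45% of all genes). Irs2, an adaptor of the insulin and IGF1 receptors, was at 152, 208 and 94.2 CPM in vehicle and 83.2, 44.4 and 57.4 CPM in GSK3326595 (log2 difference -1.30 ± 0.36, edgeR adjusted p = 0.482). The transcription factors Foxo1 and Foxo3, which insulin signalling holds out of the nucleus, had log2 differences of -0.63 ± 0.17 and -0.52 ± 0.16 (edgeR adjusted p = 0.459 and 0.502). Igfbp7, a secreted binding protein, had one of 0.81 ± 0.27 (edgeR adjusted p = 0.522). The receptors Igf1r, Insr and Igf2r had log2 differences of 0.42 ± 0.55, -0.39 ± 0.26 and 0.15 ± 0.30, all within 2 SE of 0.

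Of 12 genes of the NOTCH pathway, with which Dlk1 interacts, 10 had log2 differences above 0 and 2 below, with a median of 0.59. Over all genes tested, 9041 of 17012 were above 0. Hey1, a NOTCH target, was at 0.646 to 0.828 CPM in vehicle and 0.902 to 1.83 CPM in GSK3326595 (log2 difference 1.01 ± 0.38, edgeR unadjusted p = 0.0335, adjusted p = 0.522). Endothelial cells also express NOTCH genes, and of 10 endothelial markers 7 had log2 differences above 0, with a median of 0.58. The part of these cells in the pathway's values was not tested.

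The genes whose log2 CPM followed a member most closely over the 6 libraries were listed by Pearson r among 14457 genes with a mean of at least 1 CPM. For Rian these were its own domain: Rtl1, Mirg and Meg3, with r of 0.9995, 0.998 and 0.997. Without GSK3326595 replicate 2 the same genes had r of 0.981, 0.921 and 0.941. Dlk1 ranked 23 and Peg3 ranked 164 in likeness to Rian. For H19 they were Gm38345, Gm27216 and Acadsb, an acyl-CoA dehydrogenase gene, with r of 0.995, 0.994 and 0.994, and Igf2 ranked 1488. For Grb10 they were Cdc14b, a phosphatase gene, Plpp7 and the zinc finger gene Zfp260, with r of 0.996, 0.995 and 0.990. For Mest they were Commd7, Gprin3 and the homeobox gene Pbx3, with r of 0.998, 0.994 and 0.993. These r describe the 6 libraries only and carry no test.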

How the data were processed

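Total RNA libraries were stranded, per the labels' protocols. The authors deposited expected counts per gene, not scaled to depth. The submitters' processing notes name cutadapt, STAR, Picard and RSEM and the build mm10, without versions; no annotation release is stated there. All values were rounded to whole numbers, since 12.3% had a fractional part (tolerance 0). Coordinates (1-based) and exon lengths came from GENCODE release M21 (GRCm38), matched by ID for 47224 genes.

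Genes passing filterByExpr (minimum count 10) were scaled by TMM and tested, GSK3326595 against vehicle, with the two-sided quasi-likelihood test of edgeR 4.0.16 (R 4.3.3), with Benjamini-Hochberg adjustment over 17012 genes at 0.05. The common biological coefficient of variation was 0.409. For log2 CPM the prior count was 2. Alternatives were DESeq2 1.42.0, limma-voom (limma 3.58.1), other scalings and filters, a block on replicate number, and each library left out in turn. The edgeR fit was tested on simulated counts.

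Members and gene lists were chosen with earlier results of these data known. Every member was named; so were neighbours with a mean of at least 1 CPM or an unadjusted p under 0.05, and up to 4 genes of smallest p from other lists, with a few others named after their values were seen. Likeness was listed for the member of highest CPM in the H19-Igf2 and Dlk1-Dio3 domains and for members at an unadjusted p under 0.05.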

Additional observations from a re-analysis of the deposited data

How the results depend on the processing

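Of 149 log2 differences of members under the alternatives, 144 kept their direction and side of the threshold, 1 newly passed it (Grb10 with DESeq2, -2.22), and 4 reversed. The reversals came from leaving out a library: Plagl1 ran from -0.36 to 1.28 and Peg3 from -1.59 to 0.07 (0.0693 without GSK3326595 replicate 2). Sizes moved more than calls: limma-voom gave lower values for Dlk1, Meg3, Rian, Mirg and Peg3, -2.76 to -1.58. Over all genes edgeR called 0, DESeq2 186 higher and 100 lower, and limma-voom weighted by sample quality 1 higher. Members lower at an unadjusted edgeR p under 0.05 numbered 1 to 2 when a library was left out. Without GSK3326595 replicate 1 they were 2 (Igf2 and Grb10), beside 961 of 17500 genes tested. Without GSK3326595 replicate 2 they were 2 (Meg3 and Grb10), beside 776 of 17401 genes tested. Members whose groups did not overlap numbered 1 to 2 higher and 4 to 6 lower, with 2 higher without vehicle replicate 3. A left-out library makes separation of the groups easier, and the share over all genes in those fits was not counted. With the replicate block 2 members, H19 and Grb10, were lower at an unadjusted edgeR p under 0.05, beside 779 of 17012 genes tested. Their edgeR adjusted p were 0.598 and 0.525 in that fit, and the block changed no other call. Same-numbered libraries deviated together with r of -0.07, 0.07 and 0.32, and differently numbered ones with r from -0.43 to 0.32. From so few libraries these values cannot show whether the numbers pair them. Without scaling beyond total counts the median of all genes moved to 0.12 from 0.03. Dividing by the longest transcript instead of all exons moved 6 of 10 RPKM values by more than their SD, up to Rian at 20.9. Of 24 likeness values 1 moved: Mest with Pbx3 had a Spearman rho of 0.829. Likeness without GSK3326595 replicate 2 was added after seeing the data. Plagl1 and Mest rest on few counts.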
